A study of Homo sapiens with 14 samples.

Results

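The genes described here are the 8 enzymes that make UDP-GlcNAc from fructose-6-phosphate or from salvaged GlcNAc and that attach or remove the O-GlcNAc mark: GFPT1, GFPT2, GNPNAT1, PGM3, UAP1, NAGK, OGT and OGA. They were chosen by gene name, whatever their counts, from the 59471 gene names of the count tables, and all 8 were found and passed the filter on low counts in every comparison. RNA-seq libraries were made from SCC23 cells, a human head and neck squamous cell carcinoma (HNSCC) line, that had received Cas9 with a guide against KMT2D (KMT2D-KO, lines KO1 and KO2) or against LacZ (KMT2D-WT). The lines were GFP-sorted transfected cells, and no single-cell cloning was described. Cells were kept in high glucose medium (+Glc) or deprived of glucose for 6 h (-Glc). The 14 libraries came from 2 experiments: 3 KMT2D-WT and 4 KMT2D-KO libraries with glucose, and the same numbers without. In each condition experiment 1 held 1 WT, 1 KO1 and 1 KO2 library, and experiment 2 held 2 WT, 1 KO1 and 1 KO2 library.

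The hexosamine pathway diverts a small part of the sugar that enters glycolysis, together with glutamine, acetyl-CoA and UTP, into UDP-GlcNAc. GFPT1 and GFPT2 catalyse the entry step, GNPNAT1 adds the acetyl group, PGM3 moves the phosphate, and UAP1 joins the sugar to UTP, while NAGK returns recycled GlcNAc to the route. OGT uses UDP-GlcNAc to modify serines and threonines of nuclear and cytoplasmic proteins, OGA removes the mark, and the same donor feeds N-glycans, sialic acid and matrix polysaccharides. The pathway is widely treated as a readout of nutrient supply, and spliced XBP1 and ATF4 are known activators of its genes in stressed cells.

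Totals ran from 15669154 to 62968057 counts per library, and the 4 +Glc libraries of experiment 2 had each mate of a read pair counted, since 67.4% to 70.6% of their low counts were even against 37.4% to 42.7% in the other 10. KMT2D itself was at 266 to 279 CPM (counts scaled to a common library total, TMM-normalised) in the WT libraries with glucose, at 182 and 184 CPM in KO1, and at 323 and 373 CPM in KO2. Without glucose WT was at 231 to 239 CPM, the KO1 library of experiment 1 at 19.9 CPM and the other KO libraries at 145 to 190 CPM. KMT2D RNA was thus below every WT library in KO1 with glucose and in all 4 KO libraries without, and above every WT library in KO2 with glucose. The KO libraries of experiment 2 without glucose were set against those of experiment 1 over 50 genes that separated KO2 from KO1 with glucose. Both lay nearer to the KO2 library of experiment 1 in 49 genes, although 1 of them carries the KO1 label. The KO1 library of that comparison is the one with KMT2D at 19.9 CPM. The 2 KO libraries of experiment 2 without glucose, and the 2 WT libraries beside them, were closer to each other than other pairs were (chi-square per gene 1.78 and 1.71, against 25.9 to 83 elsewhere). TXNIP, a glucose-induced gene, was at 44.9 to 137 CPM with glucose and 3.2 to 9.72 CPM without. All 8 squamous epithelial markers were present (2030 to 4380 TPM summed), whereas fibroblast, endothelial and immune markers summed to at most 9.27, 2.24 and 0.445 TPM.

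Per unit of exon length, UAP1 and OGT were the most abundant of the 8 transcripts and GFPT2 the least. The median level over 14 libraries was 148 TPM (counts divided by exon length and scaled to a common total) for UAP1, 101 TPM for OGT, 70.1 TPM for OGA, 43.4 TPM for GNPNAT1, 38.2 TPM for GFPT1, 18.0 TPM for both NAGK and PGM3, and 1.16 TPM for GFPT2. In that order UAP1 was above OGT in 13 of 14 libraries, OGT above OGA in 12, OGA above GNPNAT1 in 12, GNPNAT1 above GFPT1 in 10, and GFPT1 above NAGK in 13. NAGK was above PGM3 in 7 of 14 libraries, so those neighbours could not be ordered, whereas PGM3 exceeded GFPT2 in all 14. The entry step was thus represented by GFPT1, with GFPT2 at 22 to 127 counts per library. GNPNAT1 differed most between libraries, by a ratio of 3.97 between the highest and lowest CPM, and UAP1 least, by 1.63. Much of the GNPNAT1 range lay between experiments, since the WT mean of experiment 2 was 1.93 times that of experiment 1 with glucose and 2.49 times without.

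**Figure D1:**
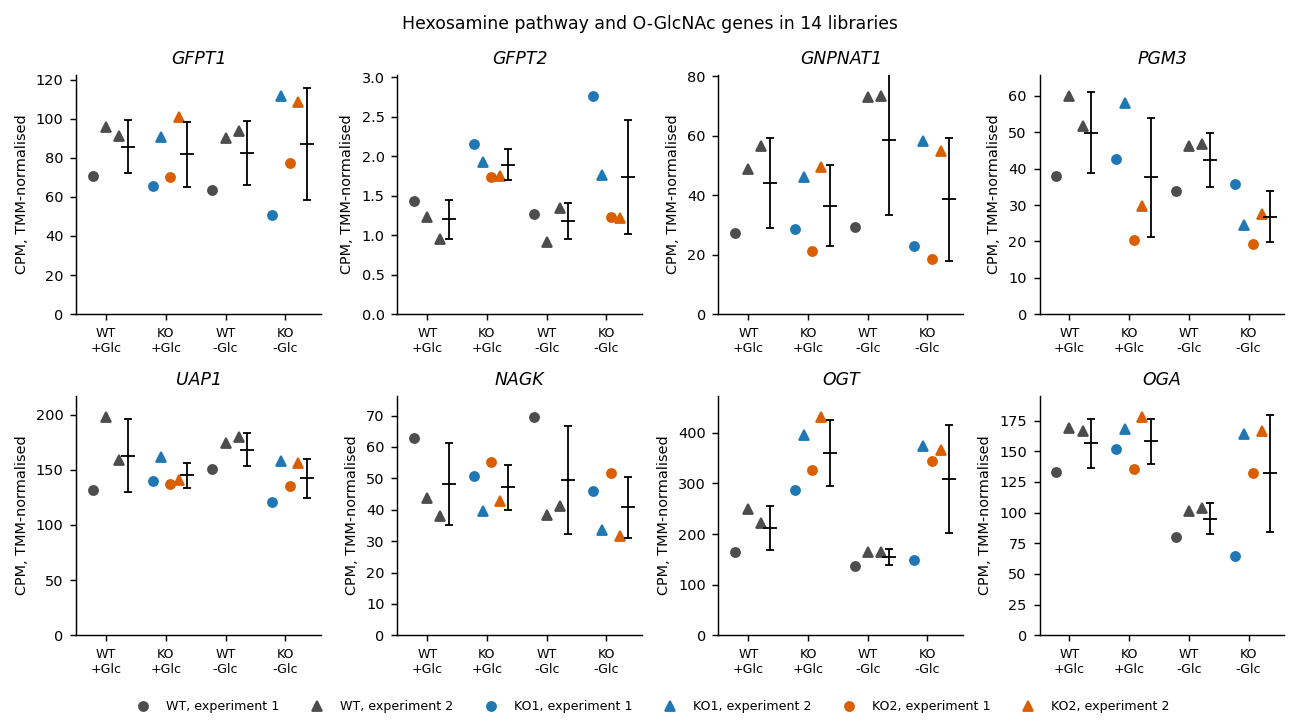
TMM-normalised CPM of the 8 genes in each of the 14 libraries, from 0 on each axis, by group (WT or KO, +Glc or -Glc). Colour marks the line label, shape the experiment, and the black bar the group mean ± SD. OGT in the KO +Glc libraries lies above every WT library, PGM3 is low in KO2, and the KO1 library of experiment 1 without glucose sits apart from the other KO libraries for OGT and OGA.

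To learn what loss of KMT2D did to the pathway in fed cells, KO and WT libraries with glucose were compared, with the experiment as a term. OGT was the single member with an adjusted p below 0.05 by edgeR, and it was higher in KO. The comparison averages over KO1 and KO2, and PGM3, which differed between these lines, is described below. OGT lies on chromosome X of GRCh38 from 71533104 to 71575892 on the + strand. Its level was 164.5 CPM in the WT library of experiment 1 and 250.5 and 222 CPM in those of experiment 2. The KO libraries were at 288 (KO1) and 327 CPM (KO2) in experiment 1 and at 396 (KO1) and 430.5 CPM (KO2) in experiment 2. Every KO library was above every WT library, also within each experiment. The group means were 212 ± 43.8 CPM (SD, n = 3) and 360 ± 64.8 CPM (SD, n = 4). OGT had a fitted log2 fold change of 0.85 (SE 0.09, adjusted p = 0.000331 by edgeR's quasi-likelihood test). Of all genes tested, 24.7% passed in this comparison (13% higher, 11.7% lower), so that 1 of 8 members is no more than the general rate. Within experiments, KO minus WT on the log2 CPM scale was 0.90 in experiment 1 and 0.81 in experiment 2. Each line taken singly showed the same rise: 0.76 for KO1 (SE 0.08, adjusted p = 5.07e-07) and 0.93 for KO2 (SE 0.08, adjusted p = 4.34e-08, both by edgeR), in contrasts where 32% and 34.6% of genes passed.

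OGA, the opposing enzyme, had a log2 fold change of 0.07 (SE 0.08, adjusted p = 0.54 by edgeR) in the same libraries. It lies on chromosome 10 from 101784443 to 101818465 on the - strand. Its WT libraries were at 133.5, 169 and 167 CPM, and its KO libraries at 152 and 136 CPM in experiment 1 and 168 and 178 CPM in experiment 2, so that the groups overlapped. The other 6 members missed the threshold as well. GFPT1 was at 0.01 (SE 0.08), UAP1 at -0.11 (SE 0.12), NAGK at -0.08 (SE 0.10) and GNPNAT1 at -0.13 (SE 0.11) on the log2 scale. GFPT2 had the second largest value, 0.65 (SE 0.24, adjusted p = 0.0808 by edgeR), with WT at 0.946 to 1.43 CPM and KO at 1.74 to 2.15 CPM. These GFPT2 groups did not overlap, at levels close to 1 CPM. The share of all genes with no overlap between KO and WT libraries was not computed, here or for the other genes so described.

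The sequences before the starts of OGT and OGA are shown because these genes encode opposing enzymes on the same mark, and with glucose OGT was called higher in KO whereas OGA was not called. Each is the 250 bases before the RefSeq start on GRCh38.p14, 5′ to 3′ on the gene's own strand, with GC boxes (GGGCGG on either strand) in capitals.
OGT promoter, chrX:71532854-71533103, + strand: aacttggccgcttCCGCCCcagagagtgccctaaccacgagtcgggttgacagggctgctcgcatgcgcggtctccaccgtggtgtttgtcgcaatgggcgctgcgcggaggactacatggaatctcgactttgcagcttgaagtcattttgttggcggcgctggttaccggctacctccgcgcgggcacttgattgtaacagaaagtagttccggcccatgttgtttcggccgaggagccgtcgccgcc
OGA promoter, chr10:101818445-101818694, - strand: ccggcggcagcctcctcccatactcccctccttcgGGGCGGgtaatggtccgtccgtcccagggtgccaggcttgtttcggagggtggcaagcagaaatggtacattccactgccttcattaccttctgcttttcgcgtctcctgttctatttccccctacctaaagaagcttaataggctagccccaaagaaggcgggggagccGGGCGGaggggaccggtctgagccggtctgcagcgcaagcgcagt
The OGT window holds 1 GC box and the OGA window 2, and both have a GC content of 60.8%, against a median of 58% over 34788 promoter windows. A GC box was present in 42.6% of those windows. Neither window holds an E-box (CACGTG, in 6.31% of all windows), an ATF/CRE half-site (TGACG, in 21.2%) or a CCAAT box (CCAAT, in 32% of windows), searched on both strands. No window of the 8 genes holds the E-box, whereas the half-site occurs in windows of UAP1 and NAGK. A match or its absence is a description of these letters in these windows.

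**Figure D2:**
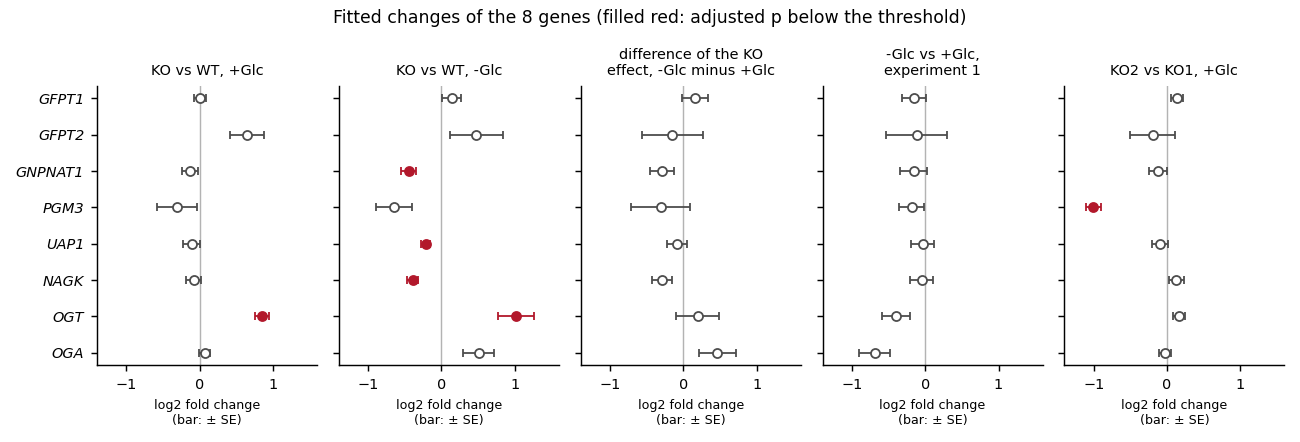
Fitted log2 fold changes of the 8 genes in 5 comparisons, with bars of ± SE. Filled red points have an adjusted p below 0.05. OGT is filled with and without glucose, GNPNAT1, UAP1 and NAGK without glucose, and PGM3 between the KO lines, and no gene is filled in the panels for the difference of the KO effects and for glucose deprivation.

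PGM3, the mutase between the acetylation and UDP steps, differed between the knockout lines. PGM3 lies on chromosome 6 from 83161150 to 83193936 on the - strand. With glucose, the WT libraries were at 37.9, 59.9 and 51.8 CPM. KO1 was at 42.6 CPM in experiment 1 and 58 CPM in experiment 2, and KO2 at 20.3 and 29.6 CPM. KO1 lay within the WT range and KO2 below every other library of its experiment. KO2 against KO1 gave a log2 fold change of -1.004 (SE 0.10, adjusted p = 4.26e-06 by edgeR), and PGM3 was 1 of 8 members called where 14.7% of all genes were (7.4% higher, 7.32% lower). Against WT the same fit gave 0.10 for KO1 (SE 0.09, adjusted p = 0.479) and -0.90 for KO2 (SE 0.10, adjusted p = 9.89e-07, both by edgeR). The other 7 members lay between -0.20 and 0.17 in KO2 against KO1, and OGT was at 0.17 (SE 0.08, adjusted p = 0.227 by edgeR).

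The genes around PGM3 moved the same way, a comparison that was chosen after the PGM3 values had been seen. All 7 genes with a mean of at least 5 CPM within 1 Mb of it were lower in KO2 than in KO1, with log2 fold changes from -0.46 to -0.90. ME1, the cytosolic malic enzyme, stood at -0.84 (adjusted p = 2.43e-05 by edgeR) and TPBG at -0.90 (adjusted p = 9.4e-06). The shift reached far along the chromosome, since of 68 genes within 20 Mb 56 were called lower, 0 were called higher, and the median was -0.60. The rest of chromosome 6 had a median of -0.09 over 493 genes (30% called lower, 7.71% called higher). Other chromosomes had 0.05 over 10327 genes (9.89% called lower, 13.3% called higher). Against WT, the median of the 68 genes was -0.49 in KO2 and 0.14 in KO1. PGM3, at -1.004, was lower than all 7 of its near neighbours. No DNA measurement was used here. DOP1A overlaps 14.5% of the exonic bases of PGM3 and was at -0.59, and whether reads over shared bases enter either gene depends on the counting.

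**Figure D3:**
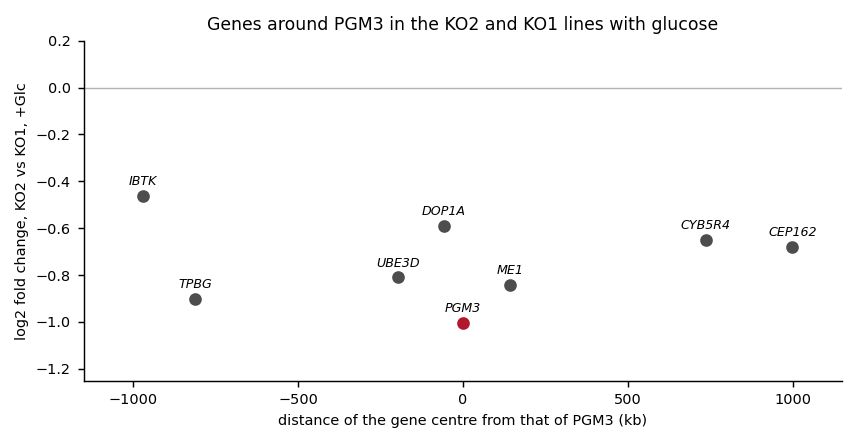
Log2 fold change of KO2 against KO1 with glucose (y axis) for PGM3 (red) and the 7 genes with a mean of at least 5 CPM within 1 Mb of it (grey), by the distance between gene centres in kb (x axis). All points lie below 0, from -0.46 (IBTK) to -1.004 (PGM3).

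The surroundings of the other members were examined in the same way, beside the 10327 genes on chromosomes other than 6. Genes counted here as higher or lower had an adjusted p below 0.05 by edgeR. Of the 10327 genes, 22.6% were higher and 26.4% lower in KO1 than in WT, and 27.8% and 25.6% in KO2. OGT had 11 such neighbours, of which 5 were higher and 1 lower in KO1 (median 0.24) and 7 higher and 0 lower in KO2 (median 0.35). In the comparison of both lines with WT, 5 were higher and 0 lower, RPS4X, a ribosomal protein gene, was at 0.70 and NHSL2 at 2.99 (adjusted p = 4.01e-05 by edgeR), while MED12, TAF1, ZMYM3 and HDAC8 lay between 0.03 and 0.22 and missed the threshold. All 19 neighbours of GFPT2 were higher in KO1 than in WT (median 0.69) and 18 were in KO2 (median 0.64), beside GFPT2's own 0.75 and 0.55. Of 7 neighbours of GNPNAT1, 6 were lower in KO1 and 6 in KO2 (medians -0.56 and -0.48), while GNPNAT1 itself was at -0.07 and -0.20. Of 28 neighbours of OGA, 15 were lower in KO1 and 17 in KO2 (medians -0.28 and -0.31), with OGA at 0.08 and 0.06. Of 16 neighbours of GFPT1, 3 were lower and 3 higher in KO1 and 0 lower and 7 higher in KO2. UAP1 had 5 neighbours, 1 lower in KO1 and 2 lower in KO2, and NAGK 13, of which 3 were lower and 2 higher in KO1 and 2 lower and 6 higher in KO2. The part of these surroundings in the members' values was not tested.

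In cells deprived of glucose, KO and WT differed in 4 of the 8 members, where 50.8% of all genes tested passed (25.9% higher, 24.9% lower). OGT was higher in KO, and GNPNAT1, UAP1 and NAGK were lower. OGT was at 137, 165 and 164 CPM in the WT libraries. The KO1 and KO2 libraries of experiment 1 were at 149 and 345 CPM, and those labelled KO1 and KO2 in experiment 2 at 374 and 366 CPM. The KO1 library of experiment 1 lay inside the WT range and the other 3 lay above every WT library. The log2 fold change was 1.01 (SE 0.25, adjusted p = 0.0131 by edgeR). Leaving that KO1 library out gave 1.18 (adjusted p = 1.53e-14), in a fit where 74.4% of all genes passed. With each close pair of experiment 2 summed into 1 library it was 0.98 (adjusted p = 0.127, both by edgeR). The call was also lost when any 1 of the WT libraries was left out (adjusted p = 0.0523 to 0.0554). It was lost too with the libraries labelled KO1 alone (adjusted p = 0.0623) and without the experiment as a term (adjusted p = 0.0546, all by edgeR). The fitted values in those fits stayed between 0.73 and 1.11. KO minus WT on the log2 CPM scale was 0.72 in experiment 1 and 1.17 in experiment 2.

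NAGK, the salvage kinase, lies on chromosome 2 from 71064344 to 71079808 on the + strand. Without glucose its WT libraries were at 69.4 CPM in experiment 1 and 38.2 and 41.2 CPM in experiment 2. Its KO libraries were at 46.1 and 51.8 CPM in experiment 1 and 33.4 and 31.7 CPM in experiment 2. KO was below WT in each experiment although the groups overlapped across them, and the log2 fold change was -0.39 (SE 0.07, adjusted p = 0.00458 by edgeR). GNPNAT1, the acetyltransferase, lies on chromosome 14 from 52775193 to 52791668 on the - strand. The WT libraries were at 29.5, 73.2 and 73.3 CPM, and the KO libraries at 23 and 18.4 CPM in experiment 1 and 58.2 and 54.9 CPM in experiment 2. Here too KO was lower within each experiment, at a log2 fold change of -0.44 (SE 0.10, adjusted p = 0.0105 by edgeR). The GNPNAT1 call was lost without the WT library of experiment 1 (adjusted p = 0.0698). It was also lost without the library labelled KO2 in experiment 2 (adjusted p = 0.0526, both by edgeR). AL139317.3 covers 35.6% of the exonic bases of GNPNAT1 and had 0 counts in all 14 libraries.

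UAP1, the pyrophosphorylase on chromosome 1 from 162561506 to 162599842 on the + strand, had the smallest of the called differences. Its WT libraries were at 151, 174 and 180 CPM, and its KO libraries at 121 and 135 CPM in experiment 1 and 157.5 and 156 CPM in experiment 2. The log2 fold change was -0.22 (SE 0.06, adjusted p = 0.0201 by edgeR), and with median-ratio scaling in place of TMM it was -0.17 (adjusted p = 0.0582). The call was also lost when any WT library or either KO library of experiment 2 was left out (adjusted p = 0.0698 to 0.0994). It was lost too with the libraries labelled KO1 alone (adjusted p = 0.0672), without a filter (adjusted p = 0.0879) and in the fit of 14 libraries (adjusted p = 0.111, all by edgeR). Summing the close pairs gave adjusted p = 0.0943 for NAGK, 0.132 for GNPNAT1 and 0.273 for UAP1 by edgeR, in a fit where 16.5% of all genes passed, and the fitted values moved little (-0.41, -0.45 and -0.21). PGM3 was at 33.7, 46.3 and 46.9 CPM in WT and at 35.9 (KO1) and 19.3 CPM (KO2) in experiment 1. The libraries labelled KO1 and KO2 in experiment 2 were at 24.5 and 27.5 CPM, both at the low level seen in KO2 with glucose. Its log2 fold change of -0.65 (SE 0.25, adjusted p = 0.0655 by edgeR) missed the threshold. Leaving out KO1 of experiment 1 gave -0.87 (adjusted p = 1.6e-10 by edgeR), in a fit where 74.4% of all genes passed. That fit still counts the close pairs of experiment 2 as separate libraries. With the close pairs summed, PGM3 was at -0.52 (adjusted p = 0.332 by edgeR).

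OGA without glucose split the KO libraries. The WT libraries were at 80.3 CPM in experiment 1 and 101 and 104 CPM in experiment 2. The KO1 library of experiment 1 was at 64.6 CPM, below WT, and the other KO libraries were at 133 CPM (KO2, experiment 1) and at 164 and 167 CPM (labelled KO1 and KO2, experiment 2), above WT. The fitted difference of 0.51 (SE 0.21, adjusted p = 0.0865 by edgeR) missed the threshold. Leaving that KO1 library out gave 0.66 (adjusted p = 1.35e-11 by edgeR), in a fit where 74.4% of all genes passed. With all -Glc libraries kept, the contrast also passed in the fit of 14 libraries (0.53, adjusted p = 0.0275) and without a filter on low counts (0.50, adjusted p = 2.03e-05, both by edgeR). These fits count the close pairs of experiment 2 as separate libraries. With the close pairs summed, OGA was at 0.46 (adjusted p = 0.346 by edgeR), where 16.5% of all genes passed. GFPT1 was at 63.7 to 93.6 CPM in WT and 50.5 to 111 CPM in KO, a log2 fold change of 0.14 (SE 0.13, adjusted p = 0.405 by edgeR). GFPT2 was at 0.48 (SE 0.36, adjusted p = 0.308 by edgeR), with KO at 1.21 to 2.76 CPM over a WT range of 0.918 to 1.34 CPM.

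To ask what 6 h without glucose did to the pathway, each line of experiment 1 was compared with itself, since its libraries were counted alike. The fitted change, an average over the 3 lines, was negative for all 8 members, while it was positive for 7719 of all 16066 genes tested. Of the members 0 were called, where 1.1% of all genes were (0.479% higher, 0.622% lower). By unadjusted p under 0.05 the count was 1 (OGA), and DESeq2 called 0. OGA had the largest change, -0.69 on the log2 scale (SE 0.21, adjusted p = 0.122 by edgeR), followed by OGT at -0.40 (SE 0.20, adjusted p = 0.287 by edgeR). The other 6 lay between -0.19 (PGM3) and -0.04 (UAP1). In WT alone GNPNAT1, UAP1 and NAGK were higher without glucose, by 0.11, 0.19 and 0.14 on the log2 CPM scale.

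The OGA values differed by line, which the comparison above averages over. In WT, OGA went from 133.5 to 80.3 CPM in experiment 1 and from a mean of 168 to 103 CPM in experiment 2, changes of -0.73 and -0.71 on the log2 scale. In KO1 of experiment 1 it went from 152 to 64.6 CPM (-1.23). In KO2 of experiment 1 it went from 136 to 133 CPM (-0.03), and in the libraries labelled KO1 and KO2 in experiment 2 the change was -0.04 and -0.09. OGA was lower without glucose in WT and in KO1 of experiment 1, and the other KO libraries were near their +Glc level. The OGT values ran in a like order: -0.26 and -0.52 in WT, -0.95 in KO1 of experiment 1, 0.08 in KO2 of experiment 1, and -0.08 and -0.24 in the KO libraries of experiment 2. Without the -Glc KO2 library of experiment 1, which takes that line out of the comparison, the fitted OGA change was -0.995 (adjusted p = 0.029 by edgeR) where 0.96% of genes passed. In the fit of all 14 libraries, averaged over genotypes and experiments, OGA was at -0.53 (adjusted p = 0.00413 by edgeR) where 48.5% of genes passed, over cells that mix the counting of single reads and mates. In experiment 2 alone, an alternative chosen after the data were seen, OGA was at -0.38 (adjusted p = 0.0295), OGT at -0.34 (adjusted p = 0.0155) and GNPNAT1 at 0.36 (adjusted p = 0.00562, all by edgeR), where 49.9% of genes passed. In that experiment every +Glc library had both mates counted and no -Glc library did, and the -Glc libraries are the close pairs, so glucose and the way of counting cannot be told apart there.

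**Figure D4:**
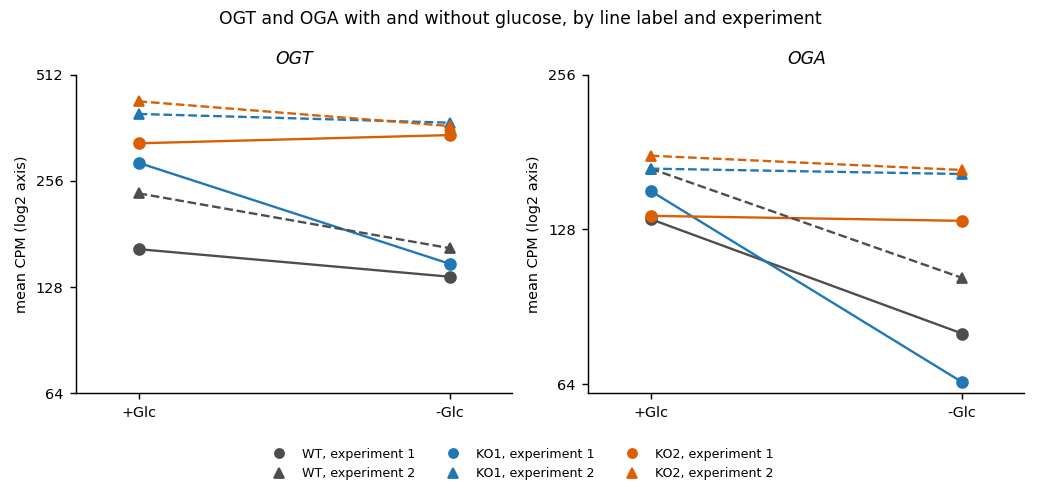
Mean TMM-normalised CPM (log2 axis) of OGT and OGA with and without glucose, joined for each line label and experiment (solid lines with circles: experiment 1; dashed lines with triangles: experiment 2). OGA is lower without glucose in WT of both experiments (-0.73 and -0.71 on the log2 scale) and in KO1 of experiment 1 (-1.23), and runs nearly level in the other 3 KO pairs.

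Whether the knockout acted differently with and without glucose was tested as the difference of the 2 KO effects in 1 fit of all 14 libraries. None of the 8 members was called (0 by adjusted p and 0 by unadjusted p under 0.05 with edgeR, and 0 by DESeq2), where 11.3% of all genes were (4.73% higher, 6.54% lower). OGA had the largest difference, 0.46 (SE 0.25, adjusted p = 0.263 by edgeR), and the intervals that these errors give leave room for sizeable differences. OGT was at 0.19 (SE 0.29), PGM3 at -0.31 (SE 0.40), GNPNAT1 at -0.29 (SE 0.16) and NAGK at -0.29 (SE 0.14). Without the KO1 library of experiment 1 without glucose, 3 members were called, where 22.5% of genes were. OGA was then at 0.64 (adjusted p = 0.000416), OGT at 0.39 (adjusted p = 0.0286) and GFPT1 at 0.28 (adjusted p = 0.0462, all by edgeR). The outcome for OGA and OGT therefore depended on whether that library was kept. The fit without it still counted the close pairs of experiment 2 as separate libraries.

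The ratio of OGT to OGA, both in TPM, was computed after these values had been seen and is given as a description. With glucose it was 0.912, 1.1 and 0.986 in the WT libraries and 1.4, 1.78, 1.75 and 1.8 in the KO libraries. Without glucose it was 1.27, 1.21 and 1.17 in WT and 1.7, 1.93, 1.69 and 1.63 in KO. Every KO library had a higher ratio than every WT library, the KO1 library of experiment 1 without glucose included. In that library both transcripts were low and their ratio was 1.7, within the 1.63 to 1.93 of its group. The mean ratio was 0.999 ± 0.0947 (SD, n = 3) in WT and 1.68 ± 0.189 (SD, n = 4) in KO with glucose, and 1.22 ± 0.0503 (SD, n = 3) and 1.74 ± 0.132 (SD, n = 4) without. Transcript ratios say nothing of enzyme activity or of the mark itself, and counts per gene do not separate fully spliced from intron-retaining transcripts, which both genes are known to make.

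**Figure D5:**
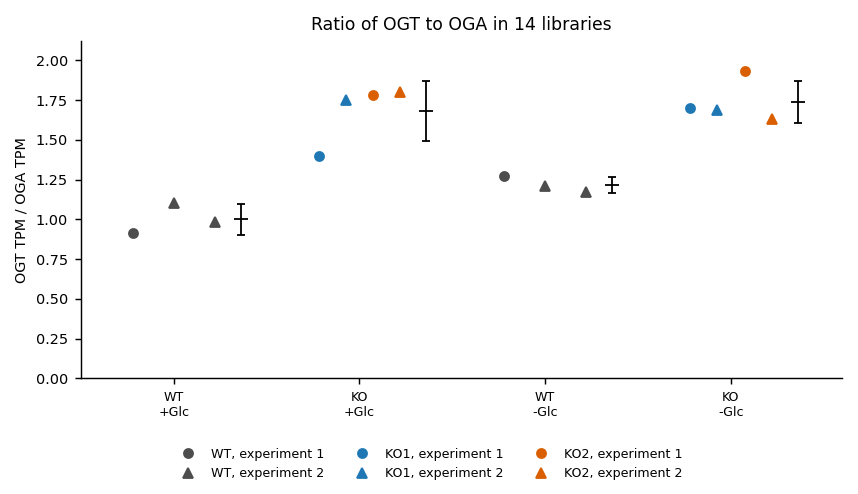
Ratio of OGT to OGA, each in TPM, in the 14 libraries by group, with the group mean ± SD as a black bar. The KO libraries lie between 1.4 and 1.93 and the WT libraries between 0.912 and 1.27.

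Genes that use or recycle UDP-GlcNAc moved in both directions with the knockout. In the gene lists below, counts of higher and lower genes are of called genes. The fits without glucose count the close pairs of experiment 2 as separate libraries. With each pair summed, 16.5% of all genes passed without glucose in place of 50.8%. The genes of these lists were not examined in that fit or without the -Glc KO1 library of experiment 1. Among 9 genes of GlcNAc salvage and breakdown, 3 were higher and 2 lower with glucose (median 0.32, against 0.02 for all genes), where 13% and 11.7% of all genes were, and 4 of 8 tested were higher and 1 lower without, where 25.9% and 24.9% were. NPL, which splits sialic acid, rose by 1.83 with glucose (adjusted p = 0.00958) and 2.51 without (adjusted p = 0.00128, both by edgeR), and AMDHD2, which deacetylates GlcNAc-6-phosphate, by 0.84 with glucose (adjusted p = 0.00578 by edgeR). GNPDA1, the deaminase that runs against GFPT1, fell by 0.83 without glucose (adjusted p = 0.000289 by edgeR). Of 9 tested genes that place GlcNAc on N-glycans, 4 were higher and 2 lower with glucose, where 24.7% of all genes were called, and 4 were higher and 4 lower without, where 50.8% were. The branching enzymes went both ways: MGAT4A and MGAT5 were lower, at -1.06 and -0.68 with glucose and -2.13 and -1.39 without, whereas MGAT4B (0.66 and 0.64) and MGAT1 (0.59 and 0.25) were higher, each past the threshold, and MGAT1 was named after its values were seen. MGAT4A and MGAT5 also differed between the lines, at -0.81 and -0.73 in KO2 against KO1, both called by edgeR. ALG13, which acts on the lipid-linked precursor, was called higher at 0.78 and 0.69. It too was lower in KO2 than in KO1 with glucose (-0.64, adjusted p = 0.000522 by edgeR).

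Of 16 tested genes of sialic acid, matrix and other uses, 5 were higher and 2 lower with glucose (13% and 11.7% of all genes), and 6 were higher and 4 lower without (25.9% and 24.9% of all genes). GNE, which converts UDP-GlcNAc into ManNAc as the first step of sialic acid synthesis, had the largest change of this list. It was at 0.127, 0.429 and 0.439 CPM in WT with glucose and at 2.13 to 5.93 CPM in KO, and at 0.141 to 0.544 CPM and 2.58 to 5.06 CPM without. The WT libraries held 3 to 29 counts of it, every KO library was above every WT library, and the log2 fold change was 3.81 with glucose (adjusted p = 0.000163) and 3.77 without (adjusted p = 0.001, both by edgeR). EOGT, which places O-GlcNAc on secreted proteins, was lower by both comparisons, at -0.76 (adjusted p = 0.00119) and -1.39 (adjusted p = 0.00016 by edgeR). Among 7 genes that bind OGT or encode its nuclear substrates, TET3 (0.80) and TET2 (0.42) were higher with glucose and 0 lower (13% and 11.7% of all genes), and without glucose 2 were higher and 2 lower (25.9% and 24.9% of all genes), with TET1 at -1.62 and HCFC1, the cell cycle factor that OGT cleaves, at -0.53. Among 7 genes of hexose and glutamine entry, 3 were higher and 1 lower with glucose, and 4 higher and 0 lower without, beside the same shares of all genes. The glutamine transporter SLC1A5 was higher at 0.66 and 0.89, and SLC2A1, the glucose transporter GLUT1, was called without glucose only (0.65, adjusted p = 0.000867), with a tested difference between conditions of 0.42 (adjusted p = 0.061, both by edgeR).

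Upon glucose deprivation, 6 of 11 genes on a list of ATF4, XBP1 and genes they drive were higher and 0 lower in experiment 1 (median 1.28, against -0.02 for all genes, of which 0.479% were called higher). CHAC1 rose by 2.37 (adjusted p = 0.00099), ASNS by 2.09 (adjusted p = 0.0228), DDIT3 by 1.80 (adjusted p = 0.0141) and TRIB3 by 1.46 (adjusted p = 0.0344, all by edgeR). XBP1 itself rose by 1.28 (adjusted p = 0.0311 by edgeR) and HERPUD1 by 1.37 (adjusted p = 0.033 by edgeR). HSPA5 was at 0.93 (adjusted p = 0.056), DNAJB9 at 0.96, SDF2L1 at 0.35, EDEM1 at -0.31 and ATF4 at 0.70, and these 5 missed the threshold. In the same fit GFPT1 was at -0.15 (SE 0.16), GNPNAT1 at -0.16 (SE 0.18), PGM3 at -0.19 (SE 0.17) and UAP1 at -0.04 (SE 0.16). In KO against WT without glucose, 8 of the 11 were higher and 2 lower, where 25.9% and 24.9% of all genes were, with TRIB3 at 1.86 and HERPUD1 at 1.70. The difference of the KO effects was called in 4 of the 11, all positive, where 4.73% of all genes were. Like the fit without glucose, this fit counts the close pairs of experiment 2 as separate libraries. The genes of this list were not examined with the pairs summed. XBP1 turned from lower in KO with glucose (-0.49, adjusted p = 0.00451) to higher without (0.66, adjusted p = 0.0125), a difference of 1.18 (adjusted p = 0.00527, all by edgeR), and DNAJB9 went from -0.43 (adjusted p = 0.132) to 0.94 (adjusted p = 0.0254). TXNIP fell by 3.46 upon deprivation (adjusted p = 0.00185 by edgeR) and was lower in KO with glucose (-1.26, adjusted p = 0.000123 by edgeR).

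Likeness to other genes was measured over the 14 libraries as Pearson's r of log2 CPM after the mean of each experiment and condition had been removed, and it is a description over libraries that share lines. For OGT the nearest of 10888 genes were SHROOM3 (0.99), CLUH (0.99) and MARCHF6 (0.99), for OGA FOXJ3, MNT and TAF5L (0.99 each), and for PGM3 TAGLN3 (0.99), NBAS (0.98) and RTCA (0.98). Between members, OGT and OGA had r = 0.82, GFPT1 and OGA 0.90, and GNPNAT1 and PGM3 0.72. OGT ran against GNPNAT1 (-0.81) and PGM3 (-0.79). The KO1 library of experiment 1 without glucose was included, at 149 CPM for OGT, 64.6 CPM for OGA and 50.5 CPM for GFPT1. Its part in these values was not tested. UAP1 had the weakest nearest gene, LRRC8B at 0.90.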

How the data were processed

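The authors aligned the reads to GRCh38 with HISAT2 and deposited whole-number counts per gene name, made with featureCounts 2.0.3 with gene models of Ensembl 102 and no use of strand, 1 table per library. Counts of all 14 libraries were tested with edgeR 4.0.16 (R 4.3.3; genes kept by filterByExpr at minimum count 10, TMM scaling, quasi-likelihood F-test, Benjamini-Hochberg over all genes tested, calls at 0.05); DESeq2 1.42.0 served as an alternative. The study's methods named DESeq2 without a covariate; the experiment number was kept as a term here because it marks shared batches, and differences between experiments correlated between WT and KO libraries (0.969 with glucose, 0.900 without, over 10889 genes). CPM are TMM-scaled over 14 libraries; TPM use the tables' exon lengths. The test scripts were tested on simulated data. All 8 genes and KMT2D are named. The plan for each fixed list was to name at most 4 called genes, those with the largest change. The text departs from it in several lists. The genes of ATF4 and XBP1 are given in full. Among the N-glycan genes MGAT1 was added, and MGAT2, called lower in KO without glucose (-0.88), was left out. Among the genes of sialic acid, matrix and other uses, EXT1 and NANP were left out. EXT1 was called higher in KO without glucose (1.64) and NANP with glucose (0.81) and without (0.65). Neighbours and the OGT to OGA ratio were added after the values were seen. The members and lists were chosen with earlier results of these data known. The study called its 2 RNA-seq experiments independent. Nothing states that libraries within an experiment came from separate cultures, so p-values measure the spread between libraries, which may in part be technical. In bulk RNA, fewer expressing cells and less RNA per cell cannot be told apart. Promoter windows and motif shares came from RefSeq (GRCh38.p14), and all 8 genes matched by symbol. The prior count for log2 CPM was 2.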

Additional observations from a re-analysis of the deposited data

Results flagged for a closer look

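Among 16 sets of 4 KO libraries (8 genes, 2 conditions), 2 held a library far from the others by Dixon's criterion, which chance alone meets in about 1 of 20 such sets. OGT in the KO1 library of experiment 1 without glucose was at 149 CPM, against 345 to 374 CPM in the other 3 KO libraries, a gap of 0.873 of the whole range. The same library held KMT2D at 19.9 CPM and OGA at 64.6 CPM, both the lowest of the 14 libraries, and the part of these values in the OGT result was not tested. UAP1 in the KO1 library of experiment 2 with glucose was at 162 CPM, against 137 to 141 CPM in the others, a gap of 0.848 of the range.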

How the results depend on the processing

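Across alternatives other than leaving out a library, 339 of 400 fitted values of the 8 genes kept their direction and their side of the threshold, 18 came to pass it, 23 no longer passed it and 20 changed sign. Across the fits that each left out a library the numbers were 288 of 328, 8, 10 and 22. No alternative turned the sign of a value that had passed the threshold in the comparisons of the report. Without the replicate block, that is, with the experiment left out, the members called fell to 0 with glucose, 0 without glucose and 0 between the lines, and over all genes from 5042 to 971, from 8521 to 3659 and from 3215 to 11. Leaving the experiment out moved the difference of effects from 2105 to 70 genes. Genotype in place of line moved deprivation from 177 to 3 genes. The members called were 0 each time. DESeq2 with genotype only called 1 member (2228 genes) with glucose and 1 (4887 genes) without. DESeq2 with the same terms called 3423 genes for the difference and 590 for deprivation.

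With glucose, 2 members were called without a filter and 2 with KO2 alone (PGM3 and OGT), and 0 with experiment 1 alone (304 genes), whereas experiment 2 alone called 2336 genes. Without glucose, 2 members were called with the libraries labelled KO1 alone and 7 with those labelled KO2 alone. These fits go by label, and the library labelled KO1 in experiment 2 lay nearer to KO2 in 49 of 50 genes. They are therefore no comparison of the lines. Experiment 2 alone called 7 members (12888 genes), and the close pairs summed called 0 (2785 genes). Leaving out 1 library gave 1 to 7 members, 7 of them without the KO1 library of experiment 1 and 1 without the WT library of experiment 1. For the difference of effects, library-size scaling called 1 member, the fits that left out a library 0 to 3, and the close pairs summed left 258 genes. For deprivation, 1 member was called without a filter (1158 genes), 1 in the fit of all 14 libraries (9066 genes), 3 in experiment 2 (9394 genes) and 0 to 1 with a library left out. Median-ratio scaling, library-size scaling and a floor of 1 CPM gave 329, 44 and 273 genes there. For the difference, experiment 1 alone called 0 genes.

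The sign changes were in values that had not been called in the main comparison. For KO against WT with glucose, GFPT1 was -0.067 without the replicate block, -0.054 by DESeq2 without it, -0.049 by library size, -0.013 without a filter, -0.064 with KO1 alone, -0.055 in experiment 1 and -0.0006 in the fit of 14 libraries. PGM3 was 0.11 with KO1 alone, UAP1 0.069 in experiment 1 and NAGK 0.0036 in experiment 2. Library-size scaling gave GFPT1 -0.11 without glucose and -0.066 for the difference, where OGT was -0.032; experiment 1 alone gave OGT -0.10 and GFPT2 0.17 there. For deprivation, experiment 2 gave GFPT1 0.092, GNPNAT1 0.36 (adjusted p = 0.00562 by edgeR) and UAP1 0.022, and the fit of 14 libraries GNPNAT1 0.13 and UAP1 0.0092. With a library left out, the ranges with glucose were -0.040 to 0.040 (GFPT1), -0.25 to 0.014 (UAP1) and -0.16 to 0.0021 (NAGK). For the difference they were -0.37 to 0.027 (GFPT2), -0.20 to 0.041 (UAP1) and -0.0054 to 0.39 (OGT). For deprivation they were -0.35 to 0.093 (GFPT2), -0.15 to 0.068 (UAP1) and -0.15 to 0.0072 (NAGK), and between the lines -0.33 to 0.027 (GNPNAT1), -0.27 to 0.062 (UAP1) and -0.12 to 0.064 (OGA). The causes were not tested. The depth of GFPT2, at 22 to 127 counts, limits what could be seen for it.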
